A study of Arabis alpina with 27 samples.

Results

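Of the 21641 genes in the count table of *A. alpina* stems, 120 (0.555%) were highest after 21 weeks of cold and at no other time of the cold series. A gene was taken into the set when its mean at 21w was at least 5 CPM (counts of the gene per 1000000 counts of its library), when that mean was at least 2 times the mean at each of 0w, 4w, 8w, 12w and 16w, and when every 21w library lay above every library of those 5 groups. The choice thus used 18 of the 27 libraries, and the levels in these 18 are given below as a description without a test. The 9 libraries taken after the return from cold took no part in the choice. Of the 120 genes, 100 are paired with an *A. thaliana* locus in the table (83.3%, against 73.7% of all genes), and symbols and roles below are those of the *A. thaliana* homolog.

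The study followed the main stem of the perennial *A. alpina*, accession Pajares, in which adventitious roots form after long cold. All plants grew for 8 weeks in long days (LD, 16 h light at 20°C and 8 h dark at 18°C) and were harvested then (0w), or after between 4 and 21 further weeks in LD at 4°C (4w, 8w, 12w, 16w and 21w), or 5 days after plants from 12, 16 or 21 weeks of cold had been moved back to the LD glasshouse (12w+5dLD, 16w+5dLD and 21w+5dLD). Each of the 9 groups has 3 libraries, and each library holds poly-A RNA from the pooled internodes 9 to 13 of 10 plants, without the axillary buds. There is no warm group of the same age, so that the length of the cold cannot be told apart from the age of the plant, and only 1 accession was sampled. In these bulk libraries, a change in the share of cells of a type cannot be told apart from a change of RNA per cell. The time of day of harvest is not given in the sources used here.

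Perennials of the Brassicaceae respond to long cold through stress-responsive transcription factors, compatible sugars and the remobilization of nitrogen and carbon. Galactinol and raffinose synthases make the sugars of the raffinose family that accumulate in the cold. High-affinity nitrate transporters of the NRT2 family work together with the small partner protein NRT3.1 and are best known from roots, and UDP-glycosyltransferases of the UGT73 family attach sugars to hormones and to other small molecules.

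Library totals ranged from 16089542 to 22523390 counts, so that 3 counts stood for 0.133 to 0.186 CPM. The counts were derived by the authors from transcript coverage, and a gene can be listed at 0 in 1 library and have a high count in the next of the same group. A count of 0 beside at least 100 counts within a group occurred in 37 of the 120 genes (30.8%) and in 13.9% of the 15039 genes with at least 5 CPM at 21w, and 68 of the 120 were listed at 0 in at least 1 of the 27 libraries. In 10 of the 120, the count in at least 1 of the 18 libraries of the rule was identical to that of a neighboring gene, so that its level is uncertain there; among the 10 are *UGT73B5*, *NADP-ME1*, *DNMT2*, AT5G11550, AT5G53895 and Aa_G296480. The library labelled 21w+5dLD replicate 3 was closer to the mean of the 21w libraries (r = 0.535 over the 1000 most variable genes, as a description) than to the mean of the other 21w+5dLD libraries (r = 0.339). For replicates 1 and 2, r was 0.348 and 0.350 with the 21w mean. With the mean of the other libraries of their group it was 0.424 and 0.460, so that agreement was modest for all 3. Whether replicate 3 was labelled or harvested as the others is in doubt. The counts and tests at 21w+5dLD that the text leads with are given with and without it. The 5 genes of the cambium list summed to between 910 and 1120 CPM at 21w and to between 375 and 702 CPM in the 15 earlier libraries, and 6 phloem genes to between 472 and 525 against 277 and 457 CPM. The 9 genes of leaves and green tissue summed to between 8975 and 15827 CPM at 21w, within the range of the earlier libraries (9206 to 29906 CPM) but for the lowest library. The 37 genes of the secondary wall summed to between 3846 and 5513 CPM at 21w and to between 1720 and 13578 CPM before, with the vessel factor *VND7* at 0 in all 3 libraries of 21w. Of the 3 bud and meristem markers, *BRC1* and *WUS* were at 0 there, and the list summed to between 55.8 and 72.5 CPM at 21w and between 53.6 and 71.3 CPM before. The 1 gene of the root hair list in the table had 28.9 to 42.3 CPM there and at most 31.0 CPM before. The part of these tissues in the set was not tested.

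In sum, the 119 genes other than the most abundant made up 3696 to 4084 CPM at 21w. The same 119 genes made up between 635 and 1519 CPM in the 15 earlier libraries. For a single gene, the 21w mean was typically 2.71 times the highest earlier mean (median), with 72 genes between 2 and 3 times, 48 at 3 times or more, 24 at 5 times or more and 12 at 10 times or more. The median 21w mean was 17.5 CPM, with 34 genes under 10 CPM and 8 over 100 CPM. In 99 of the genes the highest of the 3 21w libraries was less than 2 times the lowest, and in 8 it was more than 3 times. The rule favors such genes, because every 21w library had to lie above all earlier ones, so these numbers do not measure how well the replicates agree. Membership depended on each of the 3 libraries for some genes: 105 of the 120 still met the rule without 21w replicate 1, 111 without replicate 2 and 109 without replicate 3. Without 21w replicate 3, 11 of the 120 missed the limits on the means, among them *NPF4.3*, *JAZ1*, *GH3.3*, *NADP-ME1*, *CEK1*, *PDF1.1* and AT5G11550.

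**Figure D1:**
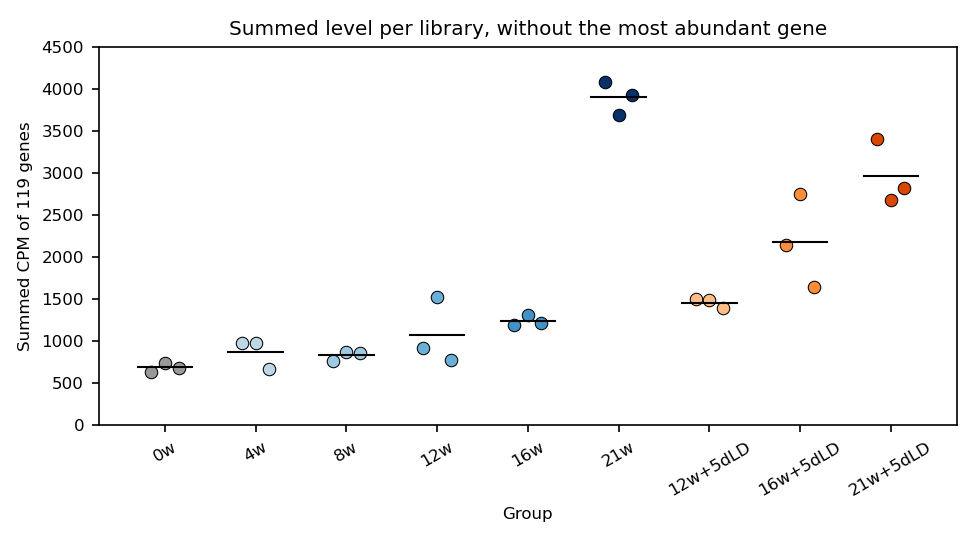
Summed CPM (y axis) of 119 of the 120 genes, without the most abundant, in each library of the 9 groups (x axis). Points are replicates and bars are group means. The 3 libraries of 21w lie between 3696 and 4084 CPM and those of the 5 earlier groups at or below 1519 CPM, which the choice of the genes fixes, and the 21w+5dLD libraries lie between 2683 and 3404 CPM.

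Before 21w, the genes of the set were not equally low at all times. The highest earlier mean was at 16w in 49 of the 120 (40.8%, against 24.9% of genes with at least 5 CPM at 21w), at 12w in 32, at 0w in 16, at 8w in 10 and at 4w in 9, while 4 were at 0 in all 15 earlier libraries. The lowest earlier mean was at 0w in 56, or 46.7% against 38.8%. The mean at 16w was above that at 0w in 89 of the 120 (74.2%, against 54.5%). A single library, 12w replicate 2, was the highest of the 15 earlier libraries in 37 of the 120 (30.8%, against 6.02%), and its sum over the 119 genes was the 1519 CPM given above, against 920 and 768 CPM in 12w replicates 1 and 3. Without it, 144 genes met the rule, and these included 119 of the 120.

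**Figure D2:**
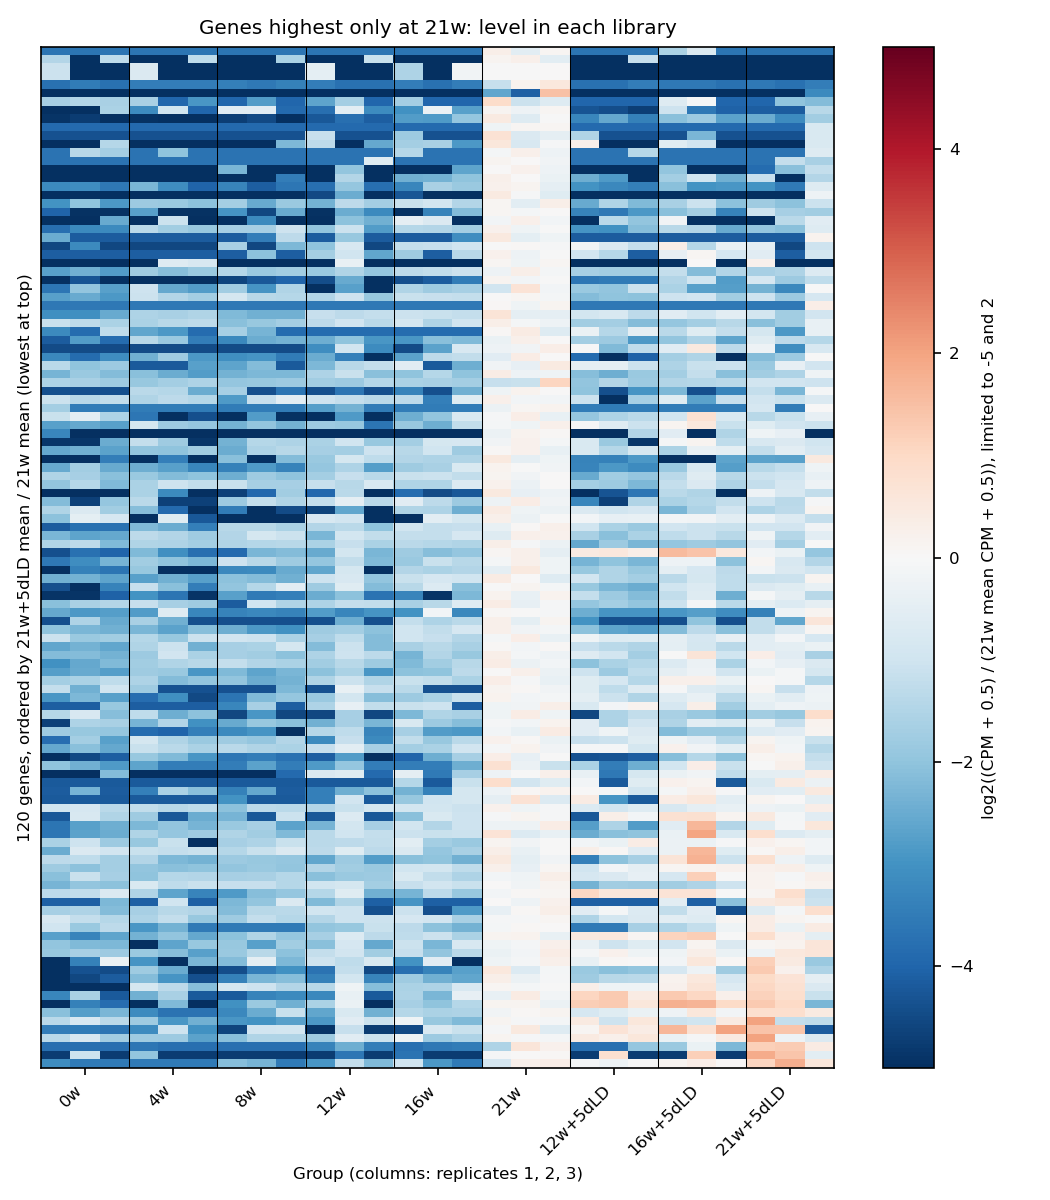
Level of the 120 genes (rows) in the 27 libraries (columns, grouped by treatment), as log2 of CPM over the 21w mean with 0.5 CPM added to both; blue is below and red above the 21w mean. Rows are ordered by the level kept at 21w+5dLD. The earlier libraries are blue throughout, as the rule requires, the third column of 21w+5dLD differs from the other 2 in many of the upper rows, and the lower rows are at or above the 21w mean after the return.

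The genes of nitrate transport and of the NPF family ranged widely in ratio, from 2.05 to 16.3. *NRT2.1* (Aa_G286010), a high-affinity nitrate transporter, had 32.5, 22.7 and 15.3 CPM in the 21w libraries. It was listed at 0 in 12 of the 15 earlier libraries, and the highest of them, 12w replicate 2, held 3.78 CPM. The 21w mean of 23.5 ± 8.63 CPM (SD, n = 3) was 16.3 times the 12w mean. *NRT2.6* (Aa_G208440), of the same family, had 11.96, 5.81 and 7.198 CPM at 21w, while 10 of the earlier libraries were at 0 and the highest held 3.05. *NRT3.1* (Aa_G73990), the partner protein that NRT2 transporters need, had 103, 67.05 and 68.999 CPM at 21w and lay between 11.1 and 36.1 CPM with a median of 18.4 in the earlier libraries, a ratio of 2.93. That all 3 were highest at 21w is set by the rule. Before 21w, *NRT3.1* had a clear basal level and both NRT2 genes little or none. The other NRT2 genes of the table were not in the set: *NRT2.3* and *NRT2.5* were at 0 in all 21w libraries and *NRT2.7* had a mean of 0.103 CPM there. This family was singled out after its values were seen.

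Genes of the NPF family were in the set too, and no substrate is assigned here to the second of them, *NPF4.3*. *NRT1.8* (Aa_G472160), which takes nitrate back from the xylem sap in *A. thaliana*, had 95.2, 83.5 and 74.9 CPM at 21w and lay between 7.69 and 49.4 CPM with a median of 14.3 before, with the highest earlier mean at 16w (33.6 CPM). *NPF4.3* (Aa_G491750), a transporter of the same family, was the most abundant gene of the set with a homolog, with 248, 219.6 and 271 CPM at 21w and 49.1, 63.05 and 59.7 CPM at 0w. Its ratio was 2.05, and its 4w libraries already held 146, 101 and 114 CPM, so that its level stood higher at the first time in the cold and again at the last. Of the 10 genes of a list for nitrate and ammonium uptake and assimilation, *NRT2.1* and *NRT1.8* were in the set (20%, against 0.555% of all genes). The others, such as the dual-affinity transporter *NRT1.1* and the glutamine synthetase *GLN1;1*, were not. In all, 3 of the 10 had their highest mean of the cold series at 21w (30%, against 30.9% of all genes with at least 5 CPM at 21w).

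Among the genes of raffinose synthesis, 2 of 6 belonged to the set. *GOLS2* (Aa_G7680), a galactinol synthase, had 103, 83.1 and 91.6 CPM at 21w against between 0 and 15.7 CPM with a median of 3.84 before, and its 21w mean of 92.4 ± 9.71 CPM (SD, n = 3) was 14.2 times the highest earlier mean. *RS5* (Aa_G495360), the raffinose synthase that uses galactinol, had 211, 164 and 142 CPM at 21w and an even level before, between 37.1 and 76.7 CPM with a median of 60.1. The 4 other galactinol and raffinose synthases followed other courses: *GOLS3* had its highest mean at 8w (837 CPM, against 278 CPM at 21w), and *GOLS1*, *GOLS4* and *RS2* had their highest mean at 21w with ratios of 1.23, 1.29 and 1.59. This family, like the next, was chosen after its values were seen.

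Of 7 UGT73 genes in the table, 5 were in the set, and they are all of the UGT73 genes with at least 5 CPM at 21w. *UGT73C5* (Aa_G25290), which glucosylates brassinosteroids in *A. thaliana*, had 34.5, 15.97 and 24.7 CPM at 21w and 3.198, 3.12 and 6.19 CPM at 16w, and in the 12 libraries before 16w it did not exceed 1.39 CPM. The level was thus higher at 16w and again at 21w, with a ratio of 6.01. *UGT73C1* (Aa_G25260) and *UGT73C7* (Aa_G502830) had ratios of 3.04 and 2.89, with 8.25, 7.57 and 10.7 CPM and 15.4, 11.4 and 13.1 CPM. *UGT73B1* (Aa_G97280) had 28.6, 14.6 and 17.58 CPM at 21w and at most 1.47 CPM at 0w and 4w. *UGT73B5* (Aa_G405270) entered by a narrow margin: its lowest 21w library held 81.5 CPM, and 16w replicate 2 held 80.7 CPM. The earlier libraries of *UGT73B5* fell into a low range (2.398 to 14.3 CPM) and a high range (32.8 to 80.7 CPM) within the same groups, a switch of the kind described above for these counts.

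**Figure D3:**
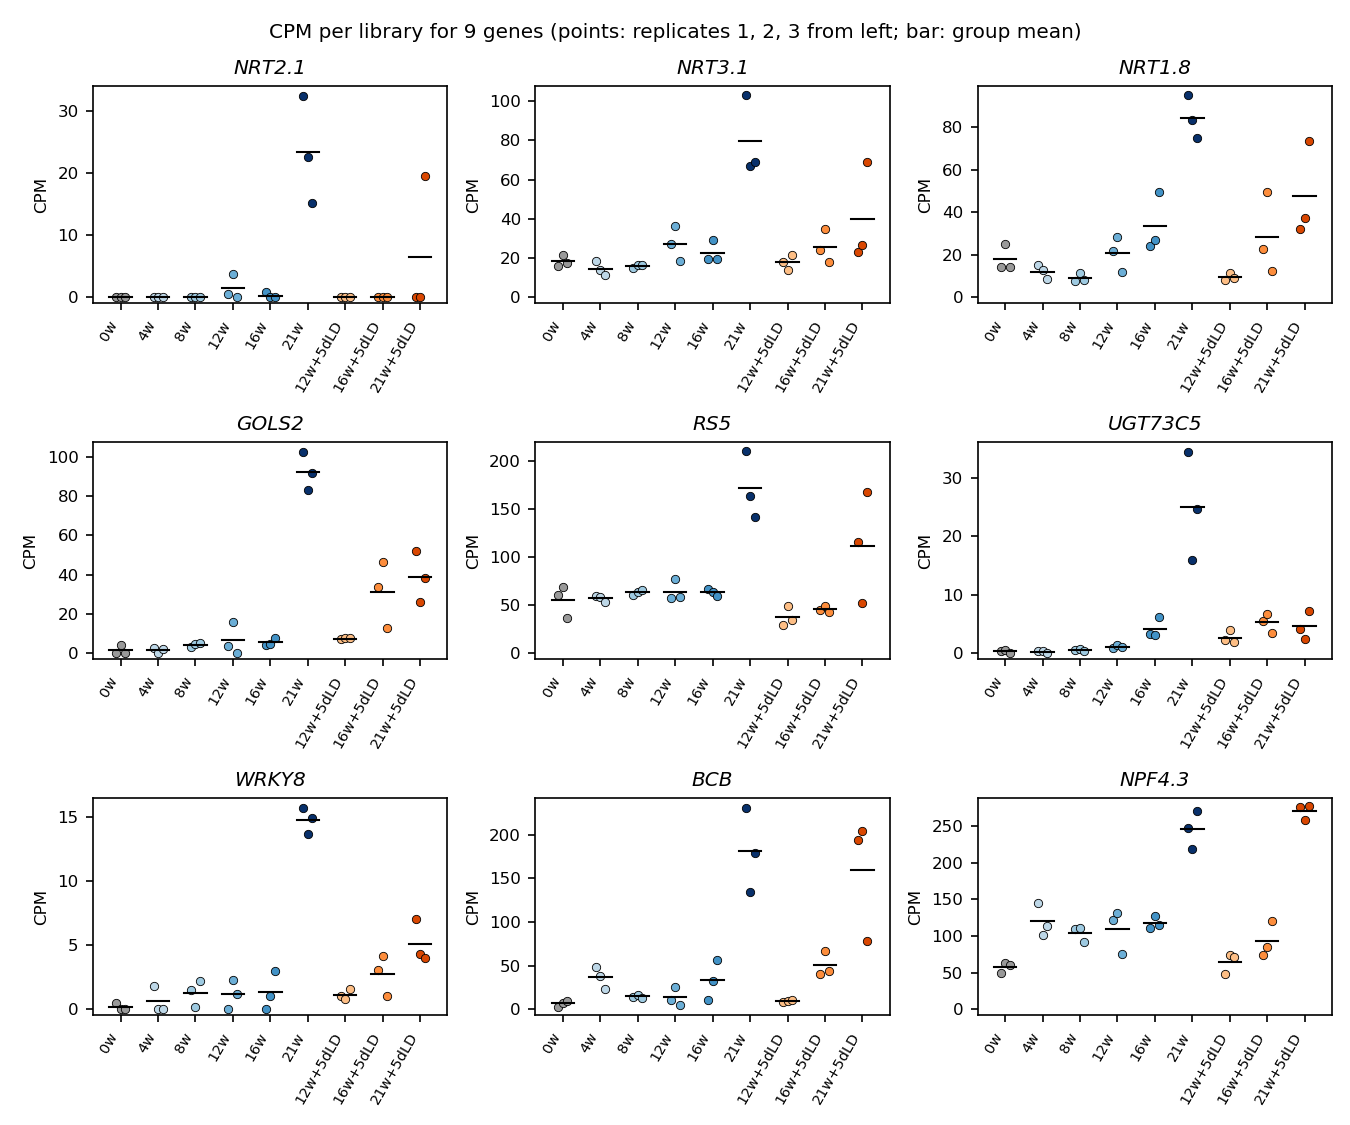
CPM (y axes, from 0) of 9 genes in each library of the 9 groups (x axes). Points are replicates 1, 2 and 3 from left to right and bars are group means. At 21w all points lie above all points of the 5 groups to their left, and at 21w+5dLD *NPF4.3* stays at 258 to 277 CPM while *UGT73C5* lies at 2.42 to 7.25 CPM.

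In all, 4 genes were at 0 in all 15 earlier libraries and above 0 in every 21w library. *PUB36* (Aa_G81090), a U-box protein, had 5.88, 7.28 and 7.301 CPM, which is at least 37.9-fold higher than the level that 3 counts per earlier library would give. *PCK2* (Aa_G81330), a phosphoenolpyruvate carboxykinase, an enzyme of gluconeogenesis, had 5.67, 4.697 and 6.12 CPM (at least 30.5-fold higher by the same floor). *MLO6* (Aa_G545610) had 7.21, 3.82 and 6.12 CPM (at least 31.7-fold higher). The 3 genes were low, and their 21w libraries differed by less than 2 times. *PDF1.1* (Aa_G465980), a plant defensin, had 4.896, 1.41 and 89.7 CPM and thus rested on replicate 3, and without that library its mean stayed under 5 CPM. These zeros say that no transcript was assigned in the counting, and for genes of this kind a switch between 0 and a clear count occurs within groups too.

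*MLO6* and *MLO12* (Aa_G202490) encode membrane proteins that, with *MLO2*, allow powdery mildew to enter leaves of *A. thaliana*. *MLO12* had 33.2, 65.3 and 38.97 CPM at 21w and lay between 0 and 24.8 CPM with a median of 4.65 before, while *MLO2* was not in the set, with a mean of 75.2 CPM at 21w against 99.3 CPM at 4w. Other genes tied to defense or stress included *LTP3* (Aa_G535280), a lipid transfer protein, with 1.804, 9.63 and 7.25 CPM at 21w and at most 0.745 CPM before. The 3 libraries of 12w together held 20 counts of *LTP3* against 340 at 21w, a ratio of 16.8 (95% interval 10.7 to 27.9, exact and for counting error only), and the 21w libraries themselves differed by more than 3 times. *GSTU4* (Aa_G199670), a glutathione transferase, differed likewise among its 21w libraries, 8.92, 4.05 and 2.06 CPM, and its mean of 5.01 CPM was the lowest in the set. *BCB* (Aa_G68110), a blue copper-binding protein of the cell surface induced by stress, had 231, 135 and 179 CPM at 21w and lay between 2.43 and 56.7 CPM with a median of 14.4 before. *MLP328* (Aa_G509920), of the family of major latex proteins, had 106, 124 and 132 CPM at 21w, and its highest earlier library was 12w replicate 2 with 70.8 CPM.

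Transcription factors and other regulators of transcription made up 15 of the 120, counted after the genes were known. Their summed level was 274 to 335 CPM at 21w and 34.7 to 124 CPM in the earlier libraries. *WRKY8* (Aa_G524870), a WRKY factor of stress and defense responses, had the largest ratio of them, 11.2, with 15.7, 13.7 and 14.96 CPM at 21w and between 0 and 2.94 CPM with a median of 0.463 before. The other WRKY genes were *WRKY31* (31.1, 26.1 and 20.7 CPM, ratio 5.12) and *WRKY47* (27.7, 39.7 and 30.8 CPM, ratio 2.35). *NAC055* (Aa_G421880), a NAC factor of the response to abscisic acid and jasmonate, was at 0 in all 3 libraries of 0w, had 11.2, 8.26 and 4.44 CPM at 4w and 22.9, 19.9 and 21.03 CPM at 21w. Its highest earlier library, 12w replicate 2, held 18.04 CPM. *NAC046* and *NAC084* had ratios of 3.498 and 2.02, and the bZIP factor *TGA9* was at 0 in the 9 libraries up to 8w and had 8.97, 9.45 and 13.6 CPM at 21w. The highest earlier library of *TGA9*, 16w replicate 3, held 5.99 CPM. *ZAT12* (Aa_G33770), a zinc finger protein of the response to cold and oxidative stress, had 27.6, 10.5 and 12.96 CPM at 21w, and its earlier means went from 1.94 CPM at 0w to 7.69 CPM at 16w. Of 14 cold-regulated genes in a list of the CBF pathway and its targets, *ZAT12* alone was in the set (7.14%, against 0.555% of all genes). Of the 14, 12 had at least 5 CPM at 21w and 6 of these had their highest mean of the cold series there (50%, against 30.9% of all genes at that level).

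Genes of hormone pathways in the set are given as shares of their lists, beside the 0.555% of all genes that were in it. With 1 or 2 genes per list, these shares are uncertain. For jasmonate, *JAZ1* (Aa_G634720), a repressor of the response, had 63.1, 59.8 and 86.5 CPM at 21w and lay between 15.8 and 41.3 CPM with a median of 22.5 before, and *JOX2* (Aa_G464250), an enzyme that hydroxylates and so inactivates jasmonate, had 11.9, 11.2 and 14.04 CPM and at most 7.15 before. They were 2 of 31 genes of the jasmonate list (6.45%). Of that list, 26 genes had at least 5 CPM at 21w and 16 of these their highest mean of the cold series there (61.5%, against 30.9% of all genes at that level). The share highest at 21w was 14 of 25 in the auxin list, 5 of 10 in the cytokinin and in the abscisic acid list, 4 of 9 in the gibberellin list and 10 of 24 in the ethylene list. In 2 lists it was below that of all genes, with 1 of 6 for brassinosteroid (16.7%) and 3 of 13 for defense and salicylate (23.1%). For ethylene, the factors *ERF2* (18.4, 11.6 and 14.96 CPM, ratio 2.13) and *RAP2.6L* (12.5, 10.04 and 10.3 CPM, ratio 3.02) were 2 of 32 (6.25%). For auxin, *GH3.3* (Aa_G288640), which conjugates auxin to amino acids, was 1 of 36 (2.78%). It had 4.07, 5.52 and 5.81 CPM at 21w and was above 0 in only 3 earlier libraries (at most 1.22 CPM). For gibberellin, *GA2OX6* (Aa_G6340), which inactivates gibberellins, was 1 of 15 (6.67%), with 10.9, 6.11 and 8.07 CPM and at most 5.16 before. No gene of the abscisic acid (14), cytokinin (19) and brassinosteroid (8) lists was in the set. Lists this short would seldom hold a gene at a share of 0.555%, so these zeros say little. The 3 lists are also not complete: *UGT73C5*, which glucosylates brassinosteroids, and *TMAC2*, a regulator of the response to abscisic acid, were in the set but not in them. In the lists of hormone-responsive genes given with the study, 10 of 483 genes responsive to abscisic acid were in the set (2.07%, against 0.555% of all genes), as were 5 of 180 for jasmonic acid (2.78%), 3 of 241 for ethylene (1.24%), 3 of 308 for auxin (0.974%), 1 of 151 for salicylic acid (0.662%), 1 of 115 for gibberellic acid (0.870%) and none of 193 for cytokinin or 85 for brassinosteroid. The 10 were *ABR1*, *GOLS2*, *LTP3*, *NHL6*, *PHT1;4*, *RAP2.6L*, *RS5*, *TMAC2*, *TSPO* and *WRKY8*.

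Outside the hormone lists, the 24 genes tied to the formation of lateral and adventitious roots had 1 in the set (4.17%, against 0.555% of all genes). It was *NRT2.1*, listed there for its role in root branching. Of that list, 13 genes had at least 5 CPM at 21w and 2 of these had their highest mean of the cold series there (15.4%, against 30.9% of all genes at that level). *PHT1;4* (Aa_G216900), a phosphate transporter, was 1 of 11 genes of the phosphate starvation list (9.09%), with 38.1, 41.5 and 25.8 CPM at 21w and at most 18.19 before. *HSP90.1* (Aa_G586300), a chaperone induced by heat, was 1 of 6 of its list (16.7%), with 16.4, 4.23 and 5.604 CPM at 21w and above 0 in 2 earlier libraries. None of the 37 genes of the secondary wall, 32 of DNA replication and cell division, 23 of glucosinolates, 22 of wall loosening, 21 of defense and salicylate, 15 of suberin, 15 of the circadian clock, 14 of senescence, 11 of flavonoids and 10 of flowering was in the set. At the 0.555% of all genes in the set, lists of this length would seldom hold a gene, so these zeros say little. They hold for the listed genes only: *FMOGS-OX4*, which oxygenates glucosinolates, was in the set but not in the glucosinolate list.

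Transport of other solutes was represented by *KAT3* (Aa_G153940), a subunit of inward potassium channels, with 22.9, 25.8 and 18.5 CPM at 21w and above 0 in 3 of the 15 earlier libraries, 1 each at 8w, 12w and 16w. The amino acid transporters *LHT1* and *UMAMIT14* had 38.4, 50.96 and 39.1 CPM and 37.8, 32.6 and 56.04 CPM, and the sugar transporter *SWEET4* 23.8, 25.4 and 33.2 CPM. *LHT1* was at 0 in 8 earlier libraries and reached 31.3 CPM in another, whereas *UMAMIT14* was above 0 in 14. Enzymes of nitrogen and carbon use included the asparaginase *ASPGB1* (16.5, 5.69 and 7.04 CPM, above 0 in 2 earlier libraries), the inositol oxygenase *MIOX2* (12.5, 13.1 and 13.5 CPM, at most 6.13 before) and the malic enzyme *NADP-ME1* (35.1, 38.2 and 48.5 CPM, at most 32.04 before). *NDPK2* (Aa_G75350), a nucleoside diphosphate kinase, had 179, 169 and 162 CPM at 21w, and its earlier libraries lay at 28.7 CPM or less but for 4w replicate 2 (109 CPM) and 16w replicate 2 (153 CPM). No role is assigned here to 3 genes of high level, AT1G70780 (205, 154 and 139.8 CPM at 21w), AT5G54300 (93.6, 111 and 87.1 CPM) and AT5G11550 (37.9, 38.9 and 175 CPM). AT5G11550 rested on replicate 3 for its place in the set.

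The other 20 genes had no homolog in the table. Aa_G296480 was the most abundant gene of the set, with 1489, 2063 and 1921 CPM at 21w. It was at 11.3 to 26.9 CPM in 14 of the 15 earlier libraries and at 192 CPM in 0w replicate 1. After the return it varied within each group, with 20.6, 18.8 and 657 CPM at 12w+5dLD, 1244, 20.3 and 636 CPM at 16w+5dLD and 1569, 1357 and 20.3 CPM at 21w+5dLD, and it was left out of the sums above. Aa_G18740 had 48, 118 and 175 counts at 21w and at most 3 counts in any earlier library, a ratio of 58.6 to the 4w libraries (95% interval 26.6 to 161, exact and for counting error only). Aa_G751070 and Aa_G519430 had ratios of 7.21 and 4.74.

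The limits of the rule left near neighbors on both sides. Just inside, AT5G44005 had a 21w mean of 18.95 CPM and a ratio of 2.00, and just outside, AT5G03380 had 168 CPM and a ratio of 1.995. On the limit of 5 CPM, *GSTU4* was inside with 5.01 CPM, and the expansin *EXPA17*, with 4.90 CPM and a ratio of 5.00, was outside. On the limit set by the libraries, the lowest 21w library of *UGT73B5* was 1.01 times its highest earlier library, and that of AT4G38270, outside, was 0.976 times.

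At 5 days after the return from 21 weeks of cold, the set as a whole stood between its earlier level and that of 21w. At 21w+5dLD the level was 0.659 of the 21w mean in the median gene (0.660, 0.562 and 0.634 in replicates 1, 2 and 3), with 39 of the 120 at 0.5 of it or less (32.5%, against 4.74% of genes with at least 5 CPM at 21w) and 30 above it (25%, against 46.0%). Without replicate 3 the numbers were 53 (44.2%, against 9.08%) and 32 (26.7%, against 45.9%). Both the drop from 21w and the distance from the earlier groups follow in part from the choice of the genes, which are low in the earlier groups and high at 21w by rule, so that the shares over other genes are no like comparison and none of these values is a test. The 21w+5dLD mean was above the highest earlier mean in 104 of the 120 (86.7%, against 27.4%), and all 3 libraries lay above all 15 earlier ones in 39 (32.5%, against 4.19%). Without replicate 3, these numbers were 84 (70%, against 28.9%) and 57 (47.5%, against 11.7%, over fewer libraries). In 16w+5dLD the mean was above the highest earlier mean in 77 of the 120 (64.2%, against 27.4%) and in 12w+5dLD in 57 (47.5%, against 26.3%). All 9 libraries after the return lay above all 15 earlier ones for *CYP81F1*, a cytochrome P450, *ERF2*, *GCL1*, AT2G15760, AT2G39980 and AT2G40390. The rule kept the earlier libraries of these genes low, and the share of all genes with this pattern was not computed.

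Some genes were back at the level of the earlier groups. In 11 of the 120, no 21w+5dLD library exceeded the highest earlier library (9.17%, against 65.9%), and in 40 when replicate 3 was left out (33.3%, against 75.0%). Among the 11 were *UGT73B5*, *LHT1*, *MLO6* and *DNMT2*, a tRNA methyltransferase. *UGT73C5* had 4.09, 2.42 and 7.25 CPM at 21w+5dLD after 34.5, 15.97 and 24.7 CPM at 21w. In *WRKY8* the values were 7.02, 4.299 and 4.02 CPM after 15.7, 13.7 and 14.96 CPM. Both genes lay below all of their 21w libraries, as did 40 of the 120 in all (33.3%, against 8.06%; without replicate 3, 67, or 55.8% against 26.6%), and *WRKY8* lay above all of its earlier libraries.

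Others were as high after the return as at 21w or higher. *NPF4.3* had 276, 258 and 277 CPM, of which the lowest was above 2 of its 3 libraries at 21w. *MLP328* had 214, 219 and 165 CPM, all above its 21w libraries, and was one of 2 genes of the set with this pattern (1.67%, against 6.06%), beside AT2G40390, against 14 without replicate 3 (11.7%, against 22.4%). *LTP3* and *MIOX2* had 14.8, 15.9 and 8.54 CPM and 48.8, 34.7 and 8.94 CPM and were, with AT2G40390, the genes whose mean was at least 2 times that of 21w. In *PHT1;4*, the highest level after the return followed 16 weeks of cold, with 48.02, 50.7 and 42.6 CPM at 12w+5dLD, 106, 96.2 and 50.2 CPM at 16w+5dLD and 31.9, 28.1 and 8.94 CPM at 21w+5dLD.

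Whether the level after the return depended on the length of the cold was tested between the 3 groups that the rule had not used. These hold 9 libraries, and edgeR's quasi-likelihood test was run across 19337 genes. The fit held all 27 libraries, so its estimate of the spread also drew on the 18 libraries of the rule. The rule favors genes with even 21w libraries, so the p-values are not free of the choice. Fits of only the groups compared called 2, 0 and 0 of the 120, against 13, 3 and 2 in the main fit. Genes that changed at least 2-fold were called where p, adjusted by Benjamini-Hochberg, was under 0.05. All 120 genes were among those tested, which the minimum of 5 CPM at 21w favored. The 3 comparisons share libraries with each other and are not independent.

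Against 12w+5dLD, 13 of the 120 genes were higher at 21w+5dLD (10.8%, against 1.11% of all genes tested), and 0 were lower (against 1.35%). At an unadjusted p under 0.05 (edgeR), 43 were higher and 0 lower, and without 21w+5dLD replicate 3 the numbers were 29 and 0. No share over all genes was computed at this limit, here or in the other comparisons. DESeq2, which gave an adjusted p for 118 of the 120, called 29 higher (against 2.38% of all its tested genes) and 1 lower (against 2.61%). The median log2 fold change of the 120 was 0.94, against 0.02 over all genes tested, and 101 were above 0 (84.2%, against 51.9%). In 45 of the 120 all 3 libraries of 21w+5dLD were above those of 12w+5dLD (37.5%, against 12.4%), and in 1 all were below (against 10.4%). Without 21w+5dLD replicate 3 all were above in 55 (45.8%, against 20.2%). Without 21w+5dLD replicate 3, 11 genes were called higher (9.17%, against 0.833%) and 0 lower (against 1.09%; 0 at an unadjusted p under 0.05) and the median was 0.74, and without 12w+5dLD replicate 1 or 2 the number was 6 or 7. In a fit of only these 6 libraries, 2 were called (*BCB* and *NPF4.3*).

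*BCB* had the largest change of the 13. Its 12w+5dLD libraries held 8.36, 8.72 and 9.88 CPM and its 21w+5dLD libraries 194, 205 and 78.5 CPM, a gap of 4.10 on the log2 scale (SE 0.64, adjusted p = 0.000833, edgeR). Its libraries at 16w+5dLD lay in between, with 40.8, 67.2 and 43.3 CPM. *NPF4.3* had 276, 258 and 277 CPM against 47.96, 73.4 and 71.5 CPM (log2 fold change 2.03, SE 0.21, adjusted p = 3.82e-05; edgeR). The groups of both genes did not overlap, and both calls held in every alternative fit. *NRT1.8* rose from 8.14, 11.2 and 9.02 CPM to 31.9, 37.2 and 73.5 CPM (log2 fold change 2.29, SE 0.45, adjusted p = 0.004; edgeR), with replicate 3 the highest. *TMAC2* (Aa_G71680), a negative regulator of the response to abscisic acid, rose from 4.02, 2.51 and 2.28 CPM to 7.37, 10.8 and 19.4 CPM (log2 fold change 2.06, SE 0.34, adjusted p = 0.00113; edgeR), again with replicate 3 the highest. Of the genes of raffinose synthesis, *RS5* rose from 29.2, 48.8 and 34.6 CPM to 115, 52.3 and 168 CPM (log2 fold change 1.53, adjusted p = 0.00353, edgeR).

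*AGP2* (Aa_G161360), an arabinogalactan protein of the cell surface, and *ZAT12* were higher after both longer treatments. *AGP2* had 2.26, 6.61 and 8.87 CPM at 12w+5dLD, 46.4, 100.2 and 13.7 CPM at 16w+5dLD and 51.4, 24.3 and 18.7 CPM at 21w+5dLD (log2 fold changes against 12w+5dLD 3.13 and 2.36, adjusted p = 0.037 and 0.0174, edgeR). *ZAT12* had 2.64, 3.65 and 3.801 CPM, 13.5, 69.1 and 9.76 CPM and 30.8, 10.3 and 11.9 CPM (log2 fold changes 3.15 and 2.35, adjusted p = 0.0404 and 0.0218, edgeR). In both genes 16w+5dLD replicate 2 was the highest of the 9 libraries, and the calls at 21w+5dLD were lost without 12w+5dLD replicate 1, 12w+5dLD replicate 2 or 21w+5dLD replicate 1 (edgeR, adjusted p = 0.0525 to 0.0729 for *AGP2* and 0.0639 to 0.0968 for *ZAT12*), and for *ZAT12* also without 12w+5dLD replicate 3 (adjusted p = 0.0595). The other genes called against 12w+5dLD were *TSPO*, *CEK1* (a choline kinase), *CP1* (a calcium-binding protein), *ENODL1*, AT1G21010 and AT2G46140, with log2 fold changes of 1.11 to 1.68.

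Against 16w+5dLD, 3 of the 120 were higher at 21w+5dLD (2.5%, against 0.3% of all genes tested) and 0 lower (against 0.44%). At an unadjusted p under 0.05 the numbers were 11 and 2 (8 and 2 without 21w+5dLD replicate 3), and DESeq2 called 7 higher (against 1.35%) and 1 lower (against 1.47%). In 12 of the 120 all libraries of 21w+5dLD were above those of 16w+5dLD (10%, against 8.45%), and in 1 all were below (against 7.9%). Without 21w+5dLD replicate 3 all were above in 24 (20%, against 15.4%). The genes were *NPF4.3* (log2 fold change 1.53, SE 0.21, adjusted p = 0.0016), *TMAC2* (log2 fold change 1.36, SE 0.33, adjusted p = 0.042) and *RS5* (log2 fold change 1.27, SE 0.29, adjusted p = 0.0342), all from edgeR. *NPF4.3* had 73.8, 84.3 and 119.9 CPM at 16w+5dLD, so that its level after the return was set apart at 21w+5dLD from both shorter treatments. *TMAC2* and *RS5* had 3.64, 6.96 and 3.86 and 44.7, 49.5 and 43.1 CPM at 16w+5dLD. Both depended on 21w+5dLD replicate 3: without it, their adjusted p was 0.232 and 0.182 (edgeR), *NPF4.3* alone was called (0.833%, against 0.123%; 0 lower, against 0.312%, and 2 lower at an unadjusted p under 0.05), and the median log2 fold change of the 120 went from 0.36 to 0.09. Both calls were also lost without 16w+5dLD replicate 1 or 3, and that of *RS5* without 16w+5dLD replicate 2. In a fit of only the 6 libraries compared, *NPF4.3* was not called either.

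Between 16w+5dLD and 12w+5dLD, 2 of the 120 were called higher at 16w+5dLD (1.67%, against 0.0931%), the above *AGP2* and *ZAT12*, and 0 lower (against 0.0465%; at an unadjusted p under 0.05, 23 higher and 0 lower, and by DESeq2 9, against 1.29%, and 1, against 0.953%). None was called when 12w+5dLD replicate 1 or 2 or 16w+5dLD replicate 2 was left out. The median log2 fold change was 0.48, and in 31 of the 120 all libraries of 16w+5dLD were above those of 12w+5dLD (25.8%, against 9.91%) and in 1 below them (against 8.38%). In total, the highest mean after the return was at 21w+5dLD in 80 of the 120 (66.7%, against 44.0% of genes with at least 5 CPM at 21w), at 16w+5dLD in 31 and at 12w+5dLD in 9. Without 21w+5dLD replicate 3 it was at 21w+5dLD in 65 (54.2%, against 40.1%).

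**Figure D4:**
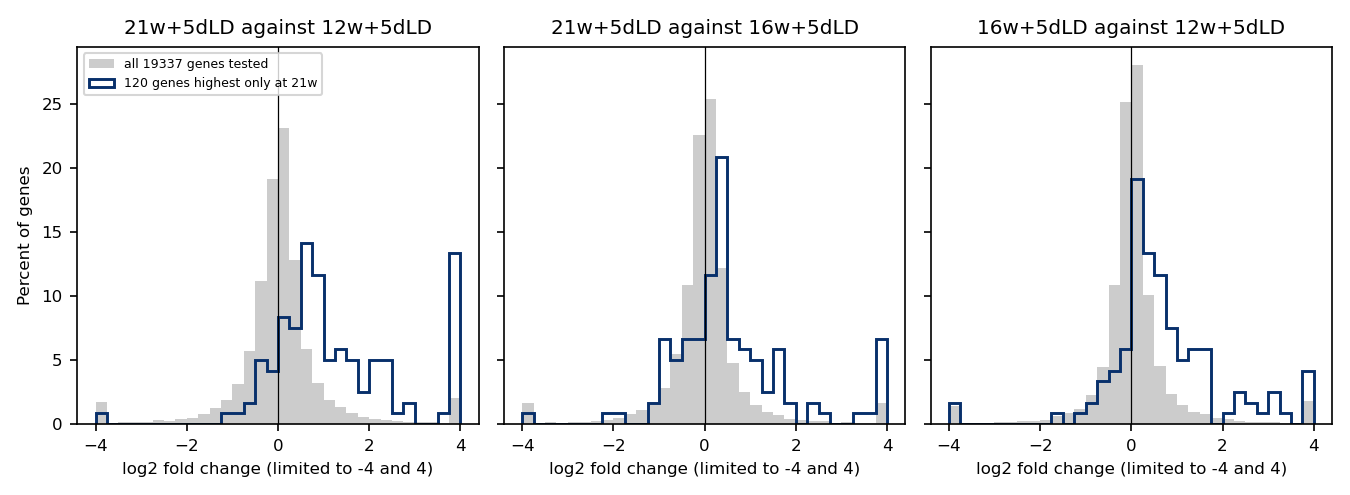
Distribution of log2 fold changes (x axes, limited at both ends) among the 3 groups after the return, for all 19337 genes tested (gray) and for the 120 genes (blue line), in percent of genes (y axis). The blue line lies to the right of the gray bars, with medians of 0.94, 0.36 and 0.48, and the end bins hold all values beyond the limits.

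Within 21w+5dLD, the replicates disagreed on many of these genes. Replicate 3 was at least 2 times both others in 23 of the 120 (19.2%, against 5.56% of genes with at least 5 CPM at 21w) and at most 0.5 of both in 17 (14.2%, against 5.66%). For replicate 1 the numbers were 6 (5%, against 1.46%) and 6 (5%, against 2.98%), and for replicate 2, 0 (against 1.34%) and 11 (9.17%, against 2.49%). In 7 of the 120 only replicate 3 was above 0 (5.83%, against 0.811%). These included *NRT2.1* with 0, 0 and 19.6 CPM, *NRT2.6* with 0, 0 and 9.39 CPM, *PCK2* with 0, 0 and 7.102 CPM, *ASPGB1*, *PUB36* and *PDF1.1*. *NRT3.1*, the partner of both NRT2 proteins, had 23.3, 26.8 and 68.8 CPM, and *UGT73B1* 2.75, 2.66 and 28.4 CPM. In *NRT2.1*, *NRT2.6*, *NRT3.1*, *PCK2* and *UGT73B1* replicate 3 was within or above the range of the 21w libraries, and in *PDF1.1* it held only 3.08 CPM. *GOLS3*, a galactinol synthase induced by cold and not in the set, had 4.09, 3.45 and 378 CPM, against 196 to 352 CPM at 21w. The reverse was seen in *FMOGS-OX4*, which oxygenates glucosinolates, with 63.5, 50.2 and 4.72 CPM after 27.4, 27.8 and 20.4 CPM at 21w, in *NADP-ME1* with 93.7, 55.3 and 10.98 CPM and in *MIOX2* with 48.8, 34.7 and 8.94 CPM. In the same library the cambium list summed to 1021 CPM, against 683 and 701 CPM in the others, and the list of leaf and green tissue to 14523 CPM against 7680 and 7769 CPM. The part of this in the results was not tested. At 21w+5dLD, *NRT2.1* and *NRT2.6* were thus above 0 in this library alone.

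**Figure D5:**
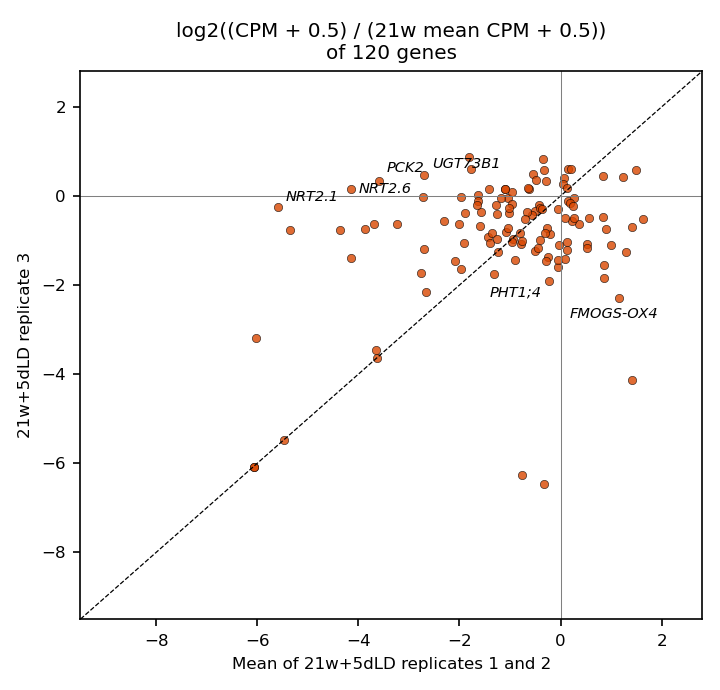
Level of the 120 genes in 21w+5dLD replicate 3 (y axis) and in the mean of replicates 1 and 2 (x axis), each as log2 of CPM over the 21w mean with 0.5 CPM added. The dashed line marks equal values. Many points lie along a y of 0, the 21w level, while their x reaches below -2, among them *NRT2.1* and *NRT2.6*, and others such as *FMOGS-OX4* lie below the line.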

How the data were processed

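Reads were mapped by the authors with HISAT2, and transcripts were assembled with StringTie. The authors deposited raw counts per gene, derived from coverage and rounded. Versions: not given in the sources used here. Their 18 comparison tables with log2 fold changes and adjusted p-values were not used. From the deposited counts, CPM (count over library total) were computed in Python 3.11.15 with no pseudocount. Tests used edgeR 4.0.16 in R 4.3.3 (filterByExpr, TMM scaling, a quasi-likelihood fit of all 27 libraries with 18 residual degrees of freedom, Benjamini-Hochberg adjustment), and scripts were tested on simulated data. No library was removed. The 3 libraries of a group are described as biological replicates, each a pool of 10 plants. The set, the gene lists and the tests were chosen with earlier results of these data known.

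Named genes are the 12 with the largest ratio and the 12 most abundant with a homolog, those in a list, up to 6 called per direction and comparison, and up to 4 without a homolog. Other genes were named after their values were seen. The alternatives were DESeq2 1.42.0, other scalings, filters and limits, the replicate number as a factor, a fit restricted to both groups of a comparison, and leaving out genes with shared counts or each library in turn. For the values after the return, TMM-scaled CPM, the set met under that scaling, and the levels and counts without a 21w+5dLD library were added after seeing the data.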

Additional observations from a re-analysis of the deposited data

How the results depend on the processing

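The set held 290 genes at 1.5 times each earlier mean, 48 at 3 times and 226 with group means only, and 111 to 176 when a library was left out. The limits of 2 and 10 CPM, TMM scaling and leaving out genes with shared counts gave 142, 86, 95 and 110. For 21w+5dLD against 12w+5dLD, DESeq2 called 30 genes of the set, a fit of only the groups compared 2, and leaving out a library gave 6 to 15. For 21w+5dLD against 16w+5dLD the numbers were 8, 0 and 1 to 4, and 1 among the genes of the set that also met the rule by TMM-scaled CPM. For 16w+5dLD against 12w+5dLD they were 10, 0 and 0 to 3. The fit of only the groups compared rests on 6 libraries and fewer tested genes. Same-numbered libraries did not deviate together (r from -0.0225 to 0.0625), so the numbers give no pairing. With the replicate block, 12, 2 and 0 genes were called in the 3 comparisons. The median share of the 21w level at 21w+5dLD was 0.597 without replicate 3 and 0.690 without replicate 2. No direction of a named call was reversed. For the other values that moved, the cause was not tested. A gene near 0 in 1 of 2 groups can have a large fold change and still not be called at this depth and spread.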

Other observations

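The genes Aa_G387390 and Aa_G548440 (AT4G35335) held the same CPM in all 27 libraries, with 33.03, 32.6 and 33.9 CPM at 21w, 0 in the 9 libraries after the return and up to 29.2 CPM in 5 of the 15 earlier libraries. They count as 2 of the 120 but give 1 measurement. Aa_G79860 and Aa_G79870, which lie next to each other, had identical counts in 13 of the 27 libraries, and both had 166 CPM in 21w+5dLD replicate 1.

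AT5G53895 (Aa_G141140) had only 2 kinds of level. It held 57.1, 45.7 and 56.4 CPM at 21w, between 30.1 and 40.9 CPM in 4w replicates 2 and 3 and in 12w replicate 2, and at most 0.324 CPM in the other 12 earlier libraries. After the return it was at 53.6 CPM in 16w+5dLD replicate 2 and at 61.9 CPM in 21w+5dLD replicate 1, and at most 0.304 CPM in the others. *DNMT2* alternated between 0 and up to 9.79 CPM within 0w, 4w, 8w and 12w, with 24.2, 25.9 and 14.96 CPM at 21w.

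By locus code, the 113 genes of the set with a chromosome lay on all 8 chromosomes, in shares of 0.381% (chromosome 1) to 0.795% (chromosome 4) of the genes of each.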
